A study of Danio rerio with 13 samples.

Results

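Gene expression in *hMYC-1* ALL was compared with that in *hlk* T-ALL, taking the 4 arrays labelled *hMYC-1* and the 3 labelled *hlk* out of 13 in the series, and every probe set of the array except its controls. Each array held GFP+ acute lymphoblastic leukemia (ALL) cells sorted from the body of 1 adult zebrafish, so the fish is the replicate. *hMYC-1* fish were *rag2:hMYC;lck:eGFP* double transgenics, in which the *rag2* promoter, active in immature B and T lymphocytes, drives human MYC fused to an estrogen receptor domain, and no tamoxifen was given. *hlk* fish carried *hlk;lck:eGFP*, another zebrafish model of T-ALL, and both groups carry GFP under the *lck* promoter. The study reports that this marker is bright in T cells and dim in B cells, so GFP+ cells can be of either kind. The 6 *hMYC-2* arrays came from the same double transgenic line and entered the fit for the estimate of spread. The study itself divided *hMYC-1* from *hMYC-2* by clustering these arrays, with *hMYC-1* as the 4 ALL nearest to *hlk*, so a test between those groups describes that division and is not independent of it. Cells of all GFP intensities from 1 fish went onto 1 array, and fewer cells of a type cannot be told apart from less RNA per cell.

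MYC is a transcription factor that in mammals increases ribosome production, nucleotide synthesis and cell growth, and it often lowers the expression of the *MYC* genes of the cell itself. T-ALL arises from thymocytes and B-ALL from B cell precursors. In mammals both kinds of precursor cut and join their antigen receptor genes with the *rag1* and *rag2* recombinase. In these zebrafish the study reports much lower *rag1* in B-ALL than in T-ALL, with similar *rag2*. The human transgene has no probe set on this zebrafish array, so its level was not measured.

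Levels are log2 values, so a difference of 1 is a 2-fold change. The tag controls, made to bind no zebrafish RNA, read up to 5.68, and levels up to there are called background. If all arrays of a group were within it, the difference is given as a limit ("or more"), counted from 5.68. Differences are *hMYC-1* minus *hlk* with limma's moderated standard error (SE), and adjusted p is limma's p after Benjamini-Hochberg adjustment over 15502 probe sets, with a threshold of 0.05. A probe set's level also reflects its own sequence, so levels were compared between arrays and not between genes. For the control gene *gapdh*, the 3′ end read 4.69 above the 5′ end on *hlk* replicate 1, against 1.09 to 2.49 on the other 12 arrays, and a wide gap is a sign of RNA degradation. On *hMYC-1* replicates 3 and 4 the 3′ end of the bacterial spike-in control dap read 2.99 and 2.54, against 5.40 to 8.35 on the other 11 arrays.

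*hMYC-1* and *hlk* ALL differed in many of the genes measured. Of 15502 probe sets, 2909 passed (18.8%), with 1416 higher and 1493 lower in *hMYC-1*, so that 48.7% of the changes were rises. Counted as genes, with 1 probe set each, 929 of 8793 were higher (10.6%) and 910 lower (10.3%). No array of 1 group overlapped the other for 2192 genes (24.9%), and 1654 of these also passed the test. Large differences were fewer, at 157 genes higher by 2 or more and 109 lower by 2 or more. In 230 of the genes that passed, every array of both groups lay within background, while 211 rose out of background and 131 fell into it. When each array was instead scaled to equal means of *actb1*, *eef1a1l1* and *gapdh*, the median difference over all probe sets moved from −0.03 to 0.19 and rises became 74.9% of the changes. That scaling moved *hlk* replicate 1 by −0.43 and the other arrays by −0.14 to 0.28.

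**Figure D1:**
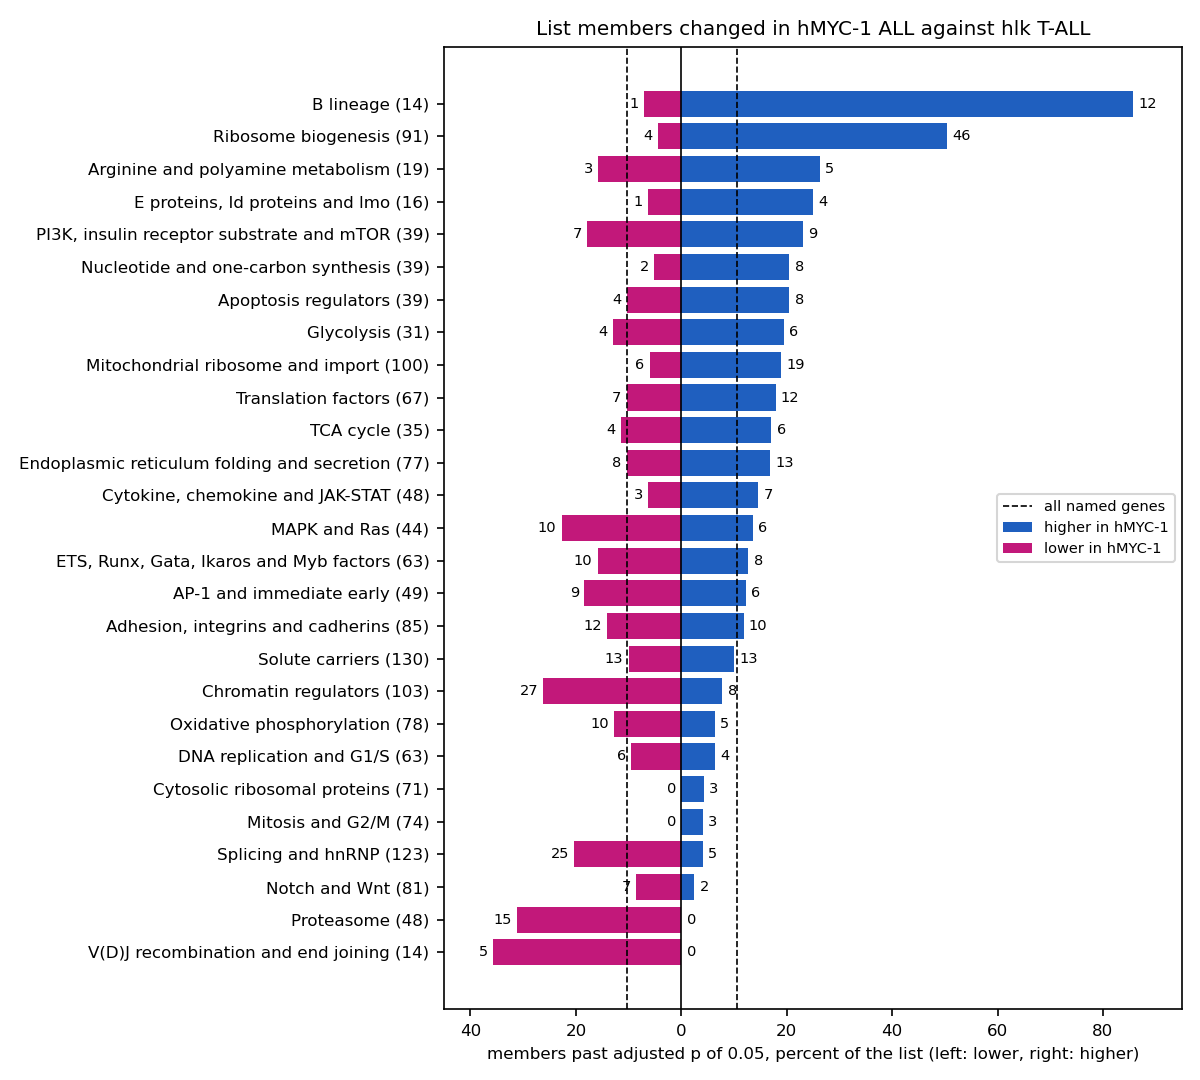
Share of each gene list's members that passed limma's test at an adjusted p of 0.05 in *hMYC-1* against *hlk*, as percent of the list, with rises to the right and falls to the left, the number of members in parentheses and the number changed at each bar. Dashed lines mark the shares over all 8793 named genes (10.6% higher, 10.3% lower). Ribosome biogenesis reached 50.5% higher and the proteasome 31.2% lower.

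The lineage genes set the frame for the other programs. Of 14 B lineage genes measured, 12 were higher in *hMYC-1* and 1, *mef2ca*, was lower, with a median difference of 3.04. These were 85.7% and 7.14% of the list, against 10.6% and 10.3% over all genes. The list's mean level stood 3.63, 3.43, 2.39 and 2.83 above *hlk* in *hMYC-1* replicates 1 to 4, and 3.38 to 3.60 above it in *hMYC-2*. Among 14 T lineage genes, 8 were within background in both groups, *gata3*, *runx3* and *trac* were lower and *tox* passed as higher. That was 21.4% lower and 7.14% higher, against 10.3% and 10.6% over all genes. *tox*, an HMG box factor of developing T cells, was at 5.55, 5.10 and 5.16 in *hlk* and at 5.55, 5.62, 6.30 and 5.85 in *hMYC-1*, near background and with overlap. Its call (adjusted p = 0.0449) was lost in 10 other settings, among them without *hMYC-1* replicate 3 or 4 or *hlk* replicate 2 or 3 (adjusted p up to 0.138). *gata3*, the transcription factor of early T cells, read 3.45, 4.02, 5.12 and 4.09 in *hMYC-1* against 9.08, 6.22 and 8.0 in *hlk*. It thus lay within background on all *hMYC-1* arrays, and it fell by 2.09 or more (adjusted p = 0.000367). *trac*, the T cell receptor alpha constant gene, read 9.89, 7.33 and 9.93 in *hlk* and 4.04, 4.92, 8.43 and 5.57 in *hMYC-1*, and it differed by −3.31 ± 0.94 (adjusted p = 0.0266). *hMYC-1* replicate 3 lay above *hlk* replicate 2 for *trac*, and its call was lost without *hMYC-1* replicate 1, 2 or 4 or *hlk* replicate 1 or 3 (adjusted p 0.0589 to 0.0952). The T cell genes *lck*, *cd4-1*, *il7r* and *zap70* had no probe set with a single symbol here and were not analysed.

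Genes that build ribosomes gave the most rises of the 59 lists examined. Of 91 ribosome biogenesis genes, 46 were higher and 4 lower (50.5% and 4.4%), with a median difference of 0.41 against −0.03 over all genes. Leaving out 1 array at a time gave 36 to 45 higher and 3 to 5 lower, and equal housekeeping levels gave 49 and 2. On the list's mean level the *hMYC-1* arrays stood 0.34, 0.53, 0.40 and 0.55 above *hlk*, clear of the *hlk* arrays at 0.02, 0.03 and −0.06. In *hMYC-2*, 43 members were higher and 4 lower than in *hlk*, against backgrounds of 12.4% and 15.2%, but the same *hlk* arrays serve both comparisons.

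*mak16*, a factor of the large ribosomal subunit's assembly in yeast, was at 5.05, 5.76 and 6.12 in *hlk* and at 7.98, 8.06, 8.32 and 8.47 in *hMYC-1*, and the groups differed by 2.56 ± 0.21 (adjusted p = 3.16e-06). Its *hlk* arrays lay near background and the *hMYC-1* arrays well above, with no overlap. *lyar*, a nucleolar protein, read 8.26, 8.47, 7.99 and 8.16 in *hMYC-1* against 6.94, 6.60 and 6.94 in *hlk*, and the difference was 1.39 ± 0.12 (adjusted p = 5.45e-06). *utp3* and *pwp2h*, whose yeast counterparts belong to the processome that cuts the small subunit's RNA, were higher by 1.63 ± 0.17 (adjusted p = 2.36e-05) and 1.07 ± 0.11 (adjusted p = 1.96e-05). *sdad1*, *rcl1* and *mybbp1a*, other nucleolar factors, were higher by 1.5 ± 0.16 (adjusted p = 2.93e-05), 1.17 ± 0.13 (adjusted p = 3.2e-05) and 1.33 ± 0.15 (adjusted p = 4.09e-05). The moderate rises included *nolc1*, a nucleolar phosphoprotein, at 0.87 ± 0.11 (adjusted p = 0.000116), and *wdr75* at 0.96 ± 0.11 (adjusted p = 5.56e-05).

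Some members went the other way. *bop1*, which works with *pes* and *wdr12* in large subunit processing, read 8.0, 8.44 and 8.27 in *hlk* and 6.69, 7.02, 7.03 and 6.98 in *hMYC-1*, and it differed by −1.31 ± 0.13 (adjusted p = 1.96e-05), although *pes* and *wdr12* themselves were among the genes that rose. *nol12*, another nucleolar protein, was lower, at a difference of −0.97 ± 0.11 (adjusted p = 5.93e-05). *ubtfl*, annotated as like the RNA polymerase I factor Ubtf, was lower, at a difference of −0.46 ± 0.09 (adjusted p = 0.00251), a call lost under equal housekeeping levels (adjusted p = 0.321), while *ubtf* was among those that rose.

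The proteins of the cytosolic ribosome itself lay at the top of the array's scale. Of 71 ribosomal protein genes, 69 had a mean level of 13 or more, as did 87 of all 8793 genes, and the highest mean of any gene was 14.42. Whether the scale hides changes there was not tested. By limma's test 3 of the 71 were higher and 0 lower (4.23% and 0%, against 10.6% and 10.3% over all genes). The median difference was 0.04. At an unadjusted p under 0.05 the counts were 13 and 1, and the shrinkage t, a test the study's methods name, called 0 in both directions. Without *hlk* replicate 1 or 2, 5 were higher, and without *hMYC-1* replicates 3 and 4 limma called 0 in both directions (6 and 1 unadjusted). The 3 that passed, *rps16*, *rps26l* and *rpl28*, differed by 0.23 ± 0.06 (adjusted p = 0.0136), 0.32 ± 0.07 (adjusted p = 0.00568) and 0.23 ± 0.06 (adjusted p = 0.0212). The mean level of the list lay between 0.03 and 0.07 above *hlk* on the 4 *hMYC-1* arrays.

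Among 67 translation factors 12 were higher and 7 lower (13 and 1 under equal housekeeping levels, 9 and 4 without *hMYC-1* replicates 3 and 4). The shares were 17.9% and 10.4%, against 10.6% and 10.3% over all genes. The largest rises were in the eIF4E-binding proteins, which hold back cap-dependent translation until mTOR phosphorylates them. *eif4ebp3l* was at 4.76, 6.19 and 5.28 in *hlk* and at 8.06, 8.19, 8.81 and 8.84 in *hMYC-1*, and the groups differed by 3.06 ± 0.31 (adjusted p = 1.78e-05). *eif4ebp1* read 10.00, 10.31, 10.17 and 10.19 in *hMYC-1* against 8.96, 8.47 and 8.56 in *hlk*, and the difference was 1.5 ± 0.15 (adjusted p = 1.27e-05). Both were separated without overlap, whereas *eif4ebp2* was among the genes that fell. *eif5a2*, which carries the hypusine residue made from spermidine, was higher by 0.91 ± 0.11 (adjusted p = 9.31e-05), and *eif6*, which keeps free large subunits apart from small ones, by 0.64 ± 0.10 (adjusted p = 0.000573). *pabpc1b*, a poly(A)-binding protein, read 7.96, 10.23 and 9.37 in *hlk* and 6.91, 7.55, 7.37 and 6.86 in *hMYC-1*, and it differed by −2.01 ± 0.38 (adjusted p = 0.00234).

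In the mitochondrion, 19 of 100 genes of the ribosome and protein import were higher and 6 lower, with a median of 0.16. As shares these were 19% and 6%, against 10.6% and 10.3% over all genes. The rises kept to 13 to 22 when 1 array was left out. The falls dropped to 2 or 3 without *hMYC-1* replicate 1 or 4 or *hlk* replicate 1 or 3, and to 1 under equal housekeeping levels. Without *hMYC-1* replicates 3 and 4, 9 were higher and 2 lower. *mrps5*, of the small mitochondrial subunit, was at 6.53, 7.16 and 7.07 in *hlk* and at 8.29, 8.27, 8.38 and 8.43 in *hMYC-1*, and the groups differed by 1.42 ± 0.15 (adjusted p = 3.04e-05). *mrpl2* and *mrpl30*, of the large subunit, were higher by 1.1 ± 0.14 (adjusted p = 0.000106) and 0.76 ± 0.11 (adjusted p = 0.00024). Oxidative phosphorylation subunits numbered 5 higher and 10 lower of 78, with a median of −0.05. These shares were 6.41% and 12.8%, against 10.6% and 10.3% over all genes. The lower count fell to 4 without *hMYC-1* replicate 4 and to 2 under equal housekeeping levels. It was 6 without *hMYC-1* replicate 1, without *hlk* replicate 3, or without both *hMYC-1* replicates 3 and 4. In the TCA cycle, 6 of 35 genes were higher and 4 (*idh2*, *mdh2*, *dldh* and *sdhb*) were lower, with a median of −0.055. That was 17.1% and 11.4% of the list, against 10.6% and 10.3% over all genes. *sdhb*, lower, and *sdhdb*, higher, are counted in both this list and oxidative phosphorylation. The counts were 8 and 1 under equal housekeeping levels, and 9 were lower without *hlk* replicate 2. Of those that rose, *fh*, fumarate hydratase, was higher by 1.13 ± 0.11 (adjusted p = 8.95e-06), on 4 *hMYC-1* arrays between 8.96 and 9.01. *mdh1ab*, a cytosolic malate dehydrogenase, was higher by 2.91 ± 0.46 (adjusted p = 0.000689).

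**Figure D2:**
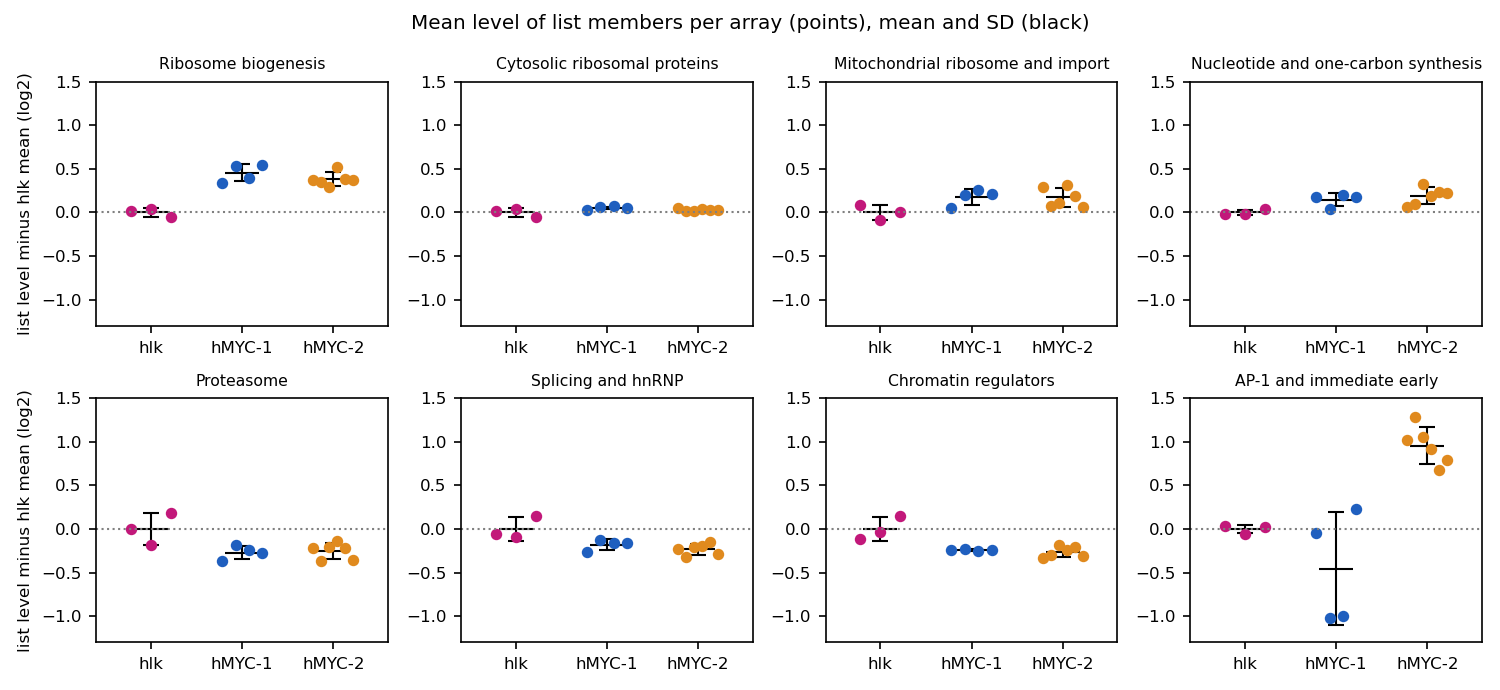
Mean level of 8 gene lists on each array (points), as log2 above the *hlk* mean of each member, in *hlk* (3 arrays), *hMYC-1* (4) and *hMYC-2* (6), with group mean and SD in black and a dotted line at the *hlk* mean. Ribosome biogenesis genes stood 0.34 to 0.55 above *hlk* in *hMYC-1*, ribosomal proteins 0.03 to 0.07, and the AP-1 and immediate early genes spread from −1.02 to 0.23.

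Nucleotide synthesis genes were higher in part. *ctps1a*, which makes CTP from UTP, read 11.60, 11.91, 11.81 and 12.06 in *hMYC-1* against 9.22, 9.37 and 8.94 in *hlk*, and the difference was 2.67 ± 0.14 (adjusted p = 3.51e-08). The groups were more than 2 log2 units apart on every array. *ppat*, which takes the committed step of purine synthesis, read 8.19, 8.53 and 7.87 in *hlk* and 9.67, 9.68, 9.53 and 9.62 in *hMYC-1*, and it differed by 1.43 ± 0.13 (adjusted p = 9.52e-06). *paics* and *mthfd1b*, also of purine and folate metabolism, were higher by 1.02 ± 0.19 (adjusted p = 0.00249) and 1.67 ± 0.30 (adjusted p = 0.0017). In all, 8 of 39 genes were higher and 2 lower (20.5% and 5.13%, against 10.6% and 10.3% over all genes). Without *hlk* replicate 3 the higher count was 5. The 2 that fell were the salvage kinase *uck2a*, at −1.21 ± 0.20 (adjusted p = 0.000806), and the mitochondrial folate enzyme *mthfd2*, which was at 8.69, 7.56 and 9.88 in *hlk* and at 5.94, 5.35, 5.88 and 6.18 in *hMYC-1*, and the groups differed by −2.87 ± 0.47 (adjusted p = 0.000815).

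Of 10 zebrafish *myc* family genes and partners, *myca* and *myclb* were lower (20%, against 10.3% over all genes) and 8 did not pass. The list median was −0.23 (−0.02 under equal housekeeping levels). *myca* read 5.06, 3.51, 5.29 and 6.11 in *hMYC-1* against 10.49, 10.62 and 10.57 in *hlk*, and the difference was −5.57 ± 0.43 (adjusted p = 1.58e-06). *myclb*, an *L-myc* gene, read 7.93, 6.59 and 8.07 in *hlk* and 4.43, 4.49, 5.26 and 5.41 in *hMYC-1*, and it fell by 1.85 or more (adjusted p = 0.000171). It lay within background on all *hMYC-1* arrays.

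Arginine and polyamine genes moved in both directions, with 5 of 19 higher and 3 lower (26.3% and 15.8%, against 10.6% and 10.3% over all genes). *ass1*, which makes argininosuccinate on the way to arginine, was at 3.50, 4.27 and 4.63 in *hlk* and at 8.03, 8.36, 7.63 and 7.91 in *hMYC-1*, and it rose by 2.3 or more (adjusted p = 1.82e-07). *arg2*, a mitochondrial arginase that breaks arginine down, read 5.05, 4.83, 5.41 and 6.93 in *hMYC-1* against 9.50, 10.52 and 10.38 in *hlk*, and it differed by −4.58 ± 0.58 (adjusted p = 0.000108). *ass1* was within background on all *hlk* arrays and *arg2* on 3 of the *hMYC-1* arrays, with replicate 4 above it. *sms*, spermine synthase, was higher by 1.63 ± 0.18 (adjusted p = 3.94e-05). *smox*, which oxidizes spermine back to spermidine, read 8.05, 4.01 and 3.80 in *hlk* and 10.22, 8.73, 9.43 and 10.73 in *hMYC-1*, with *hlk* replicate 1 well above the other *hlk* arrays, and the groups differed by 4.49 ± 0.86 (adjusted p = 0.00256). *sat1a.2*, an acetyltransferase that marks polyamines for export, was at 11.48, 11.52 and 11.37 in *hlk* and at 9.10, 9.47, 9.28 and 9.83 in *hMYC-1*, and the difference was −2.04 ± 0.22 (adjusted p = 3.25e-05). Without *hlk* replicate 1, 5 members of the list were lower.

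Of 31 glycolysis genes 6 were higher and 4 lower (19.4% and 12.9%, against 10.6% and 10.3% over all genes). Without *hlk* replicate 1, 8 were lower, and 2 were lower under equal housekeeping levels. *ldha*, lactate dehydrogenase A, was higher by 1.27 ± 0.26 (adjusted p = 0.00442). *pkma*, a pyruvate kinase, was lower, at a difference of −1.22 ± 0.21 (adjusted p = 0.00135). *slc2a3a*, a glucose transporter, rose by 0.30 or more (adjusted p = 0.000269), from levels within background on all *hlk* arrays.

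Proteasome genes were lower in part. Of 48, limma called 15 lower (31.2%, against 10.3% over all genes) and 0 higher, with a median of −0.26. At an unadjusted p under 0.05, 20 were lower and 0 higher, and by the shrinkage t 2 and 0. The size of this count depends on scaling and on single arrays, since it was 3 under equal housekeeping levels, 7 without *hMYC-1* replicate 1 or *hlk* replicate 3, 9 without *hMYC-1* replicate 4, 10 without *hlk* replicate 1, and 8 without *hMYC-1* replicates 3 and 4. The list's mean level lay at −0.37, −0.19, −0.25 and −0.28 in *hMYC-1* and at 0.00, −0.18 and 0.18 in *hlk*, so the *hlk* arrays spread more widely than the *hMYC-1* arrays. *psmb4*, of the catalytic core, read 9.63, 10.00, 9.96 and 9.82 in *hMYC-1* against 10.83, 10.59 and 10.79 in *hlk*, and it differed by −0.88 ± 0.11 (adjusted p = 0.0001). *psmg3*, an assembly chaperone, was lower, at a difference of −0.93 ± 0.15 (adjusted p = 0.000607).

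Larger falls were seen in the immunoproteasome, the form of the core whose exchanged subunits cut peptides for MHC class I. *psmb13a* read 10.43, 10.64 and 10.59 in *hlk* and 8.41, 8.88, 8.64 and 8.80 in *hMYC-1*, and the groups differed by −1.87 ± 0.16 (adjusted p = 3.49e-06). *psmb9a* was at 10.20, 10.25 and 10.16 in *hlk* and at 7.38, 8.22, 7.82 and 8.14 in *hMYC-1*, and the difference was −2.31 ± 0.24 (adjusted p = 2.23e-05). Every *hMYC-1* array lay more than 1 log2 unit below every *hlk* array for both. *psmb12* and *psmb8a* were lower, at differences of −1.48 ± 0.15 (adjusted p = 1.35e-05) and −1.28 ± 0.20 (adjusted p = 0.000584), and the activator subunit *psme1* at −0.88 ± 0.15 (adjusted p = 0.00101). These 5 genes were all the members lower among 19 of MHC class I presentation, of which 2 were higher, and 8 were lower without *hlk* replicate 1. As shares these were 26.3% lower and 10.5% higher, against 10.3% and 10.6% over all genes. *psme1* is also 1 of the 15 proteasome genes counted as lower. The calls of all 5 genes held under equal housekeeping levels, where *psmb13a* and *psmb9a* differed by −1.66 and −2.1.

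RNA processing and chromatin genes were also lower more often than higher. Among 123 splicing and hnRNP genes, 25 were lower and 5 higher (median −0.19), and among 103 chromatin regulators 27 were lower and 8 higher (median −0.20). The lower shares were 20.3% and 26.2%, against 10.3% over all genes, and the higher shares 4.07% and 7.77%, against 10.6%. Leaving out 1 array gave 19 to 33 and 19 to 27 lower. Without *hlk* replicate 1 they were 24 and 27. Under equal housekeeping levels the lower counts were 6 and 13, the higher counts 4 and 11, and the medians 0.02 and 0.01, so the direction of both medians depends on that scaling. The 5 splicing genes that rose were *lsm14aa*, *hnrnpua*, *hnrnpdl*, *sf3b2* and *fubp1*, and this count ran from 2 to 9 when 1 array was left out, lowest without *hMYC-1* replicate 3 and highest without *hlk* replicate 3. It was 2 without *hMYC-1* replicates 3 and 4.

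Single genes of these lists fell by more than the scaling shift. *ezh2*, the methyltransferase of Polycomb complex 2, read 7.89, 7.66, 8.10 and 7.79 in *hMYC-1* against 9.26, 9.12 and 9.66 in *hlk*, and it differed by −1.49 ± 0.19 (adjusted p = 0.00012). *chd4a*, a helicase of the NuRD complex, and *brd2a*, a reader of acetylated histones, were lower, at differences of −1.22 ± 0.17 (adjusted p = 0.000221) and −1.44 ± 0.21 (adjusted p = 0.000314). *bmi1a*, of Polycomb complex 1, *smarcd1*, of the SWI/SNF complex, and *kdm6ba*, an H3K27 demethylase, were lower, at differences of −1.57 ± 0.32 (adjusted p = 0.00371), −0.90 ± 0.12 (adjusted p = 0.000138) and −1.72 ± 0.32 (adjusted p = 0.0022). *mbd2*, which binds methylated DNA, was higher by 1.02 ± 0.19 (adjusted p = 0.0021). *ptbp1b*, a repressor of exon inclusion, read 7.13, 7.41 and 7.82 in *hlk* and 5.57, 5.94, 6.15 and 6.03 in *hMYC-1*, and the groups differed by −1.53 ± 0.19 (adjusted p = 9.01e-05), and *hnrnpabb* was lower, at a difference of −0.83 ± 0.10 (adjusted p = 8.94e-05). These 9 genes kept their calls under equal housekeeping levels.

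**Figure D3:**
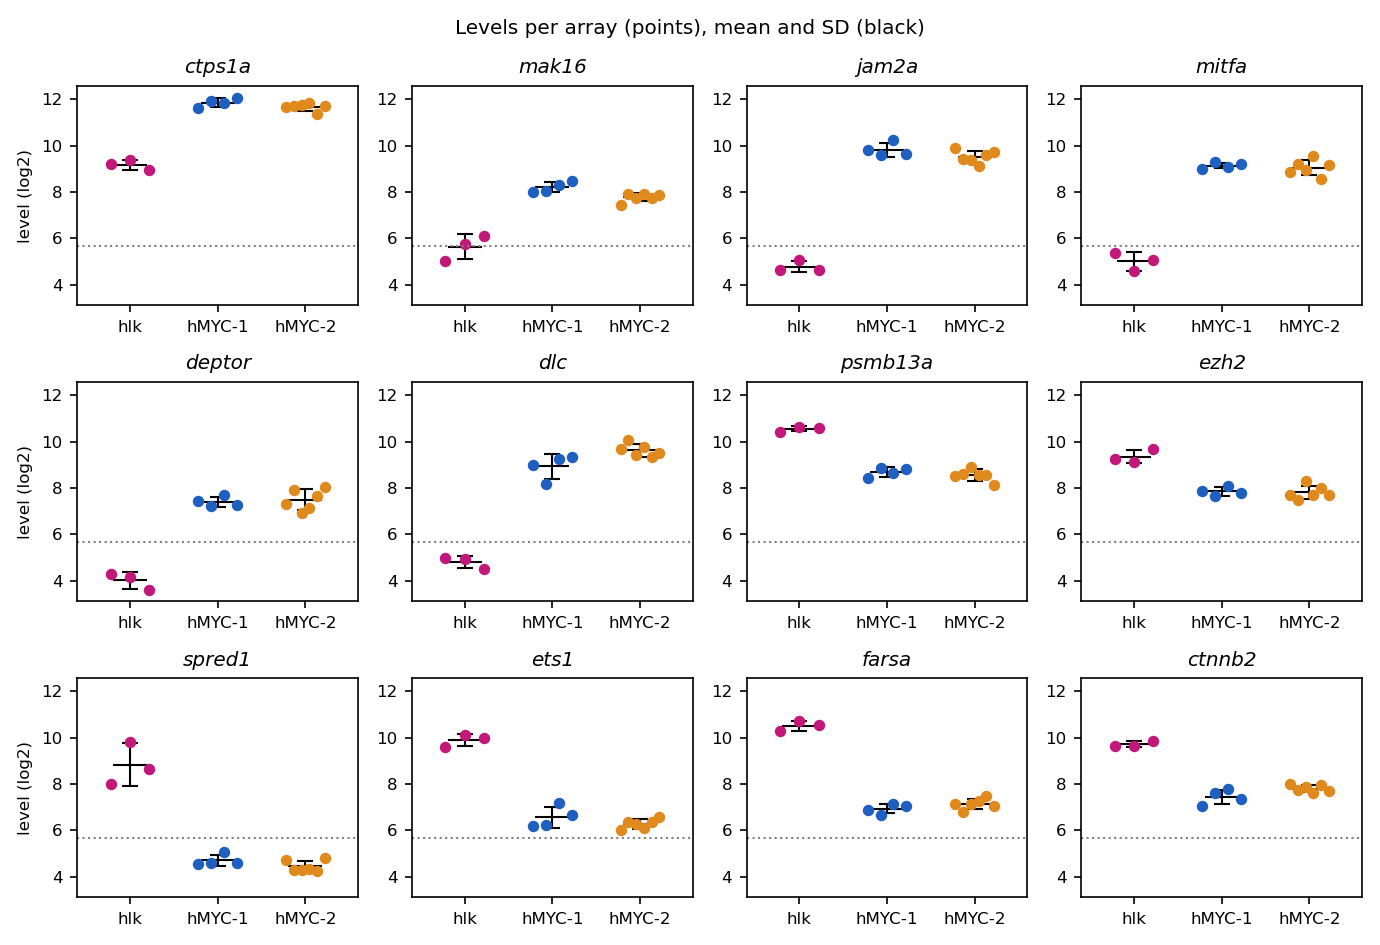
Levels (log2) of 12 genes on each array in *hlk* (3), *hMYC-1* (4) and *hMYC-2* (6), with group mean and SD in black and a dotted line at 5.68, the highest tag control. *jam2a*, *mitfa*, *deptor* and *dlc* were within background on all *hlk* arrays and clear of it on all *hMYC-1* arrays, and *spred1* the reverse.

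Few cell cycle genes passed. Of 63 genes of replication and the G1/S step, 4 were higher and 6 lower (6.35% and 9.52%, under the 10.6% and 10.3% over all genes). Under equal housekeeping levels the counts were 5 and 3. The higher count was 2 without any 1 *hMYC-1* array and 1 without *hlk* replicate 2 or without *hMYC-1* replicates 3 and 4. Of 74 genes of mitosis 3 were higher (4.05%), *lmnb1*, *cdc20* and *aurka*, and 0 lower. The call of *aurka*, a mitotic kinase, was lost without *hMYC-1* replicate 1, 3 or 4 or *hlk* replicate 1 or 2 (adjusted p 0.074 to 0.151). The *hlk* arrays were spread on the mitosis list, at 0.00, −0.62 and 0.62, with *hMYC-1* at 0.50, −0.06, 0.48 and 0.39. Without *hlk* replicate 3, the highest of its group, 18 members were higher, as were 5 without *hMYC-1* replicate 2 and 10 under equal housekeeping levels. *lmnb1*, lamin B1, was higher by 2.1 ± 0.23 (adjusted p = 3.56e-05), and *tfdp1a*, a partner of E2F factors, was lower, at a difference of −0.88 ± 0.09 (adjusted p = 1.66e-05).

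The recombination genes were lower in part. Among 14 genes of V(D)J recombination and end joining, 5 were lower (*dclre1c*, *polm*, *hmgb1a*, *hmgb1b* and *xrcc6*), which became 3 without *hlk* replicate 3 and 2 under equal housekeeping levels. The 5 were 35.7% of the list, against 10.3% lower over all genes, and 0 members were higher. *dclre1c*, the Artemis nuclease that opens hairpin ends, was at 7.05, 8.40 and 8.18 in *hlk* and at 5.0, 5.31, 6.0 and 5.43 in *hMYC-1*, and the difference was −2.44 ± 0.28 (adjusted p = 5.23e-05). *polm*, a polymerase that fills the ends, was lower, at a difference of −2.50 ± 0.38 (adjusted p = 0.000476). The recombinase genes were spread among the *hlk* arrays, and replicate 1, the array with the wide *gapdh* gap, was lowest for both. The part of array quality in this spread was not tested. *rag1* read 6.22, 6.91, 7.79 and 8.07 in *hMYC-1* against 5.50, 11.16 and 10.53 in *hlk*, so that *hlk* replicate 1 lay below all the *hMYC-1* arrays and the others above them, and it differed by −1.82 ± 1.05 (adjusted p = 0.276). Without *hlk* replicate 1 its difference was −3.60 (adjusted p = 0.000509). *rag2* read 5.10, 6.86 and 7.95 and 7.93, 7.78, 7.08 and 7.86, and the groups differed by 1.03 ± 0.70 (adjusted p = 0.365).

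Of 3 measured subunits of the phagocyte NADPH oxidase, 3 passed as higher (100%, against 10.6% over all genes). This enzyme of phagocytes and B cells makes superoxide. Without *hMYC-1* replicates 3 and 4, 2 passed. *ncf1* read 3.41, 3.26 and 3.70 in *hlk*, within background, and 11.11, 11.04, 11.25 and 11.36 in *hMYC-1*. *cyba*, the membrane subunit p22phox, read 5.72, 4.92 and 5.30 in *hlk* and 8.55, 8.62, 8.0 and 8.06 in *hMYC-1*, and the difference was 2.99 ± 0.22 (adjusted p = 1.03e-06). *ncf4* stayed within background on every array and its call was lost in 8 of the other settings. Of 6 MHC class II genes, the chaperone genes *cd74a* and *cd74b* were higher (33.3%, against 10.6% over all genes) and 0 lower. Both are also among the 12 B lineage genes that rose. *cd74a* was at 9.81, 10.57 and 10.72 in *hlk* and at 12.79, 12.67, 11.61 and 12.58 in *hMYC-1*, with replicate 3 lowest, and it differed by 2.05 ± 0.28 (adjusted p = 0.000219).

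Single signaling genes showed large differences in opposite directions within a list. Of 39 genes of PI3K, insulin receptor substrates and mTOR, 9 were higher and 7 lower (8 to 9 and 5 to 7 with 1 array left out, 9 and 4 under equal housekeeping levels). As shares these were 23.1% and 17.9%, against 10.6% and 10.3% over all genes. *eif4ebp1* and *eif4ebp3l* among the rises and *eif4ebp2* among the falls are also counted as translation factors. *deptor*, an inhibitor of mTOR, read 7.44, 7.21, 7.70 and 7.27 in *hMYC-1* against 4.31, 4.17 and 3.62 in *hlk*, and it rose by 1.73 or more (adjusted p = 1.67e-06). *pik3ip1*, an inhibitor of PI3K, was higher by 1.82 ± 0.38 (adjusted p = 0.00442). *rps6ka1*, a kinase downstream of ERK, was lower, at a difference of −1.41 ± 0.13 (adjusted p = 7.98e-06). *gab1*, *pik3r3b*, *foxo3b* and *igf1* were also among the genes that fell, and *mlst8*, *pik3c2a* and *pdpk1a* among those that rose.

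In the MAPK list 6 of 44 were higher and 10 lower (9 and 5 under equal housekeeping levels, 6 and 6 without *hMYC-1* replicates 3 and 4). That was 13.6% and 22.7% of the list, against 10.6% and 10.3% over all genes. The largest fall was in *spred1*, an inhibitor of the Ras to MAPK pathway, which read 8.01, 9.82 and 8.64 in *hlk* and 4.56, 4.61, 5.08 and 4.61 in *hMYC-1*, and it fell by 3.14 or more (adjusted p = 1.94e-06). *ptpn11b*, a gene for the phosphatase Shp2, was at 8.0, 8.21 and 7.65 in *hlk* and at 5.15, 5.45, 4.88 and 4.36 in *hMYC-1*, and it fell by 2.27 or more (adjusted p = 5.77e-06). *ptpn6*, for the phosphatase Shp1, was lower, at a difference of −2.04 ± 0.23 (adjusted p = 3.72e-05), and *map3k4*, a stress pathway kinase, at −1.26 ± 0.17 (adjusted p = 0.000249). Going up, *shc1*, an adaptor between receptors and Ras, read 8.41, 8.59, 8.03 and 8.12 in *hMYC-1* against 6.97, 5.96 and 6.18 in *hlk*, and the groups differed by 1.92 ± 0.23 (adjusted p = 7.67e-05). *rasgrp3*, a Ras exchange factor used by B cells in mammals, rose by 0.82 or more (adjusted p = 0.000267). *dusp6*, an ERK phosphatase that ERK signaling itself induces, read 10.00, 9.87 and 9.98 in *hlk* and 8.29, 6.76, 7.86 and 8.47 in *hMYC-1*, and the difference was −2.1 ± 0.35 (adjusted p = 0.000965).

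Of 81 Notch and Wnt genes, 55 were within background in both groups, 2 were higher and 7 lower. Both shares, 2.47% and 8.64%, lay under the 10.6% and 10.3% over all genes. The balance depends on scaling and single arrays, with 7 higher and 4 lower under equal housekeeping levels, 5 and 9 without *hlk* replicate 1, 3 and 8 without *hMYC-1* replicates 3 and 4, and 1 to 5 higher over all leave-outs of 1 array. *dlc*, a Notch ligand, was at 4.99, 4.94 and 4.51 in *hlk* and at 9.0, 8.17, 9.26 and 9.35 in *hMYC-1*, and it rose by 3.27 or more (adjusted p = 2.6e-07). *jag1a*, another Notch ligand, read 4.79, 4.76, 6.46 and 6.06 in *hMYC-1* against 8.84, 9.10 and 9.22 in *hlk*, with replicates 3 and 4 above background and replicates 1 and 2 in it, and it differed by −3.54 ± 0.44 (adjusted p = 0.000108). *nrarpa*, a target and feedback inhibitor of Notch, fell by 0.90 or more (adjusted p = 6.02e-06). *dlc* was thus higher and *jag1a* lower, with no overlap for either. *ctnnb2*, a beta-catenin gene, read 9.63, 9.65 and 9.87 in *hlk* and 7.06, 7.61, 7.77 and 7.35 in *hMYC-1*, and the groups differed by −2.27 ± 0.16 (adjusted p = 5.5e-07). *axin1*, which targets beta-catenin for destruction, was also among the genes that fell, and *dvl3a* was the other that rose.

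Of 48 cytokine, chemokine and JAK-STAT genes, 7 were higher and 3 lower (14.6% and 6.25%, against 10.6% and 10.3% over all genes). *cxcr4a* and *cxcr4b*, among the 7, are also counted in the B lineage list. *tgfbr2b*, a TGF-beta receptor, was at 4.98, 3.91 and 3.65 in *hlk* and at 9.58, 9.71, 7.18 and 9.04 in *hMYC-1*, with replicate 3 lowest, and it rose by 3.20 or more (adjusted p = 5.35e-05). *jak2a* and *jak1*, kinases of cytokine receptors, differed in opposite directions, by 1.79 ± 0.13 (adjusted p = 9.14e-07) and −0.91 ± 0.14 (adjusted p = 0.000591). *socs1a*, a feedback inhibitor of JAK signaling, read 6.75, 6.39, 8.99 and 8.57 in *hMYC-1* against 9.90, 11.68 and 10.93 in *hlk*, and the difference was −3.16 ± 0.60 (adjusted p = 0.00244). *socs3b* was lower, at a difference of −1.54 ± 0.36 (adjusted p = 0.00864).

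Of 63 ETS, Runx, Gata, Ikaros and Myb factors, 8 were higher and 10 lower (8 and 14 without *hlk* replicate 1). The shares were 12.7% and 15.9%, against 10.6% and 10.3% over all genes. Of 16 E proteins, Id proteins and *lmo* genes 4 were higher and 1 lower (4 and 3 without *hlk* replicate 1), or 25% and 6.25% of the list. Some single factors differed by large amounts. *mitfa*, which zebrafish need for pigment cells, read 5.38, 4.59 and 5.08 in *hlk* and 9.0, 9.27, 9.09 and 9.19 in *hMYC-1*, and it rose by 3.46 or more (adjusted p = 3.51e-08). The 4 *hMYC-1* arrays lay close together and far from the *hlk* arrays. *gata2a*, a factor of blood progenitors, was at 3.74, 3.76 and 3.92 in *hlk* and at 7.85, 7.27, 7.23 and 7.54 in *hMYC-1*, and it rose by 1.79 or more (adjusted p = 7.19e-07). *lmo2*, a partner of Gata and E protein complexes in blood progenitors, rose by 0.49 or more (adjusted p = 1.03e-05). *tcf12*, an E protein, and *foxp1a*, needed for early B cells in mice, were higher by 2.52 ± 0.31 (adjusted p = 9.46e-05) and 1.72 ± 0.17 (adjusted p = 1.62e-05), and *lmo4b* by 2.11 ± 0.21 (adjusted p = 1.78e-05).

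*ets1* read 6.19, 6.25, 7.18 and 6.66 in *hMYC-1* against 9.61, 10.12 and 9.96 in *hlk*, and it differed by −3.33 ± 0.22 (adjusted p = 4.07e-07). It is an ETS factor that thymocytes and B cells use in mammals. *nfil3-6*, a bZIP factor, read 10.65, 9.47 and 8.73 in *hlk* and 4.43, 4.25, 6.05 and 5.55 in *hMYC-1*, and the groups differed by −4.55 ± 0.49 (adjusted p = 3.23e-05). *id2a*, an inhibitor of E proteins, was lower, at a difference of −1.97 ± 0.40 (adjusted p = 0.00356). *rorab*, a nuclear receptor, rose by 1.69 or more (adjusted p = 1.51e-06).

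Among 81 Sox, hox and homeobox genes, 72 were within background in both groups. *sox11a* was at 7.83, 7.94 and 7.54 in *hlk* and at 4.08, 4.35, 5.83 and 4.66 in *hMYC-1*, and the difference was −3.04 ± 0.36 (adjusted p = 6.05e-05). *sox19a*, a SoxB1 gene of the early embryo and nervous system, read 7.96, 8.74, 8.18 and 8.35 in *hMYC-1* against 5.03, 5.30 and 5.09 in *hlk*, and it rose by 2.63 or more (adjusted p = 5.87e-08). *ved*, a homeobox repressor of the ventral embryo, which no list held, read 9.41, 10.37 and 10.37 in *hlk* and 5.60, 5.53, 6.83 and 6.25 in *hMYC-1*, and it differed by −4.0 ± 0.29 (adjusted p = 1.09e-06).

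Of 85 adhesion genes, 10 were higher and 12 lower (7 lower without *hMYC-1* replicate 1, 6 under equal housekeeping levels). These shares, 11.8% and 14.1%, lay near the 10.6% and 10.3% over all genes. *jam2a*, a junctional adhesion molecule with a part in the start of blood stem cells in zebrafish, was at 4.63, 5.06 and 4.66 in *hlk* and at 9.79, 9.59, 10.22 and 9.64 in *hMYC-1*, and it rose by 4.13 or more (adjusted p = 2.93e-09). *add3a*, an adducin that joins spectrin to actin, read 8.59, 8.91, 8.73 and 8.54 in *hMYC-1* against 4.68, 5.23 and 5.02 in *hlk*, and it rose by 3.01 or more (adjusted p = 1.04e-08). *pxna*, paxillin of focal adhesions, rose by 0.62 or more (adjusted p = 6.84e-07). *tmsb1*, a thymosin beta that binds actin, read 6.15, 4.74 and 4.99 in *hlk* and 10.15, 10.48, 10.02 and 7.84 in *hMYC-1*, with replicate 4 lowest, and the groups differed by 4.33 ± 0.52 (adjusted p = 7.67e-05).

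Of those that fell, *itgae.2*, an alpha E integrin, was at 8.46, 8.86 and 8.33 in *hlk* and at 3.97, 4.61, 5.94 and 5.29 in *hMYC-1*, and the difference was −3.60 ± 0.44 (adjusted p = 8.3e-05). In mammals this integrin sits on T cells that bind epithelium. *sema4e*, a semaphorin, fell by 1.66 or more (adjusted p = 3.07e-06). *coro1a* and *lcp1*, leukocyte actin regulators, were also lower in *hMYC-1*.

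Of the 1839 genes changed, 1272 (69.2%) were in none of the 59 lists, near the 72.5% of all 8793 genes that are in none. Among the largest rises, *slc12a7b*, a potassium-chloride cotransporter held in the solute carrier list, read 8.94, 8.82, 8.55 and 8.67 in *hMYC-1* against 4.04, 3.76 and 3.33 in *hlk*, and it rose by 3.06 or more (adjusted p = 1.67e-10). *prmt2*, an arginine methyltransferase, read 3.86, 3.14 and 3.84 in *hlk* and 9.01, 9.73, 8.65 and 9.08 in *hMYC-1*, and it rose by 3.44 or more (adjusted p = 1.38e-08). *zdhhc2*, a palmitoyltransferase, was at 3.45, 3.23 and 3.40 in *hlk* and at 8.05, 8.37, 8.74 and 8.69 in *hMYC-1*, and it rose by 2.78 or more (adjusted p = 1.24e-08). All 3 went from background on every *hlk* array to levels above 8 on every *hMYC-1* array.

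*hsd3b7*, an enzyme that makes bile acids and clears oxysterols in mammals, rose by 3.87 or more (adjusted p = 2.02e-08). *tspan36*, a tetraspanin, rose by 3.86 or more (adjusted p = 2.9e-09), and *hopx*, an atypical homeodomain protein, rose by 4.63 or more (adjusted p = 1.94e-06). *nrros*, which in mammals tethers latent TGF-beta on myeloid cells, read 10.80, 10.60, 10.08 and 10.14 in *hMYC-1* against 6.14, 4.76 and 5.62 in *hlk*, and it differed by 4.90 ± 0.31 (adjusted p = 2.73e-07). *ddit4*, an inhibitor of mTOR complex 1 induced by stress, read 6.13, 5.71 and 4.75 in *hlk* and 11.62, 8.52, 8.56 and 10.38 in *hMYC-1*, and the groups differed by 4.24 ± 0.84 (adjusted p = 0.00311), though the *hMYC-1* arrays themselves spread by over 3.

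Among the falls, *farsa*, a subunit of the phenylalanine tRNA synthetase, was at 10.27, 10.69 and 10.53 in *hlk* and at 6.89, 6.68, 7.13 and 7.06 in *hMYC-1*, and the difference was −3.56 ± 0.16 (adjusted p = 9.29e-09). It was the 1 gene lower among 17 cytosolic tRNA synthetase genes, of which *mars1* was higher. Each direction thus held 5.88% of the list, under the 10.3% lower and 10.6% higher over all genes. Without *hlk* replicate 1 the counts were 5 lower and 2 higher. *midn*, midnolin, which carries nuclear proteins to the proteasome, fell by 3.55 or more (adjusted p = 6.16e-06). *lsr*, a lipoprotein receptor of tight junctions, read 2.64, 2.78, 2.79 and 2.62 in *hMYC-1* against 4.44, 8.31 and 8.89 in *hlk*, and it fell by 1.53 or more (adjusted p = 0.000909). *pdcd4b*, an inhibitor of the eIF4A helicase, was lower, at a difference of −2.01 ± 0.14 (adjusted p = 8.45e-07). *bik*, a BH3-only promoter of apoptosis, read 4.61, 5.15 and 5.25 in *hlk* and 6.97, 7.82, 9.33 and 7.99 in *hMYC-1*, and it rose by 2.35 or more (adjusted p = 0.00115).

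A small set of genes set *hMYC-1* apart from *hlk* and from *hMYC-2* as well. Between *hMYC-2* and *hMYC-1*, 59 genes passed (0.671%), and 29 of these also passed between *hMYC-1* and *hlk*. Over all 8793 genes, 1839 passed between *hMYC-1* and *hlk*. The same 4 *hMYC-1* arrays serve both comparisons, so a gene read low or high on them tends to pass in both. In 21 of the 29 genes *hMYC-1* was lower than both other groups, and in 4 it was higher than both. Of the other 4, *ldha* and *ivns1abpa* were higher than in *hlk* and higher still in *hMYC-2*, and *ubtfl* and *srsf6b* were lower and lower still. Counted as probe sets there were 40, which fell to 23 without *hMYC-1* replicate 3 and 26 without *hMYC-2* replicate 3. Of the 21 genes, 4 also passed between *hMYC-2* and *hlk*.

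*sik1*, a kinase gene induced by cAMP, read 9.81, 10.56 and 9.46 in *hlk* and 6.67, 5.13, 5.22 and 8.81 in *hMYC-1*, against 9.74 to 10.69 with a median of 10.36 in *hMYC-2*. Its difference from *hlk* was −3.49 ± 0.70 (adjusted p = 0.00338), and *hMYC-2* minus *hMYC-1* was 3.80 ± 0.59 (adjusted p = 0.0101). *jdp2b*, a bZIP partner of Jun proteins, read 11.79, 10.33 and 10.69 in *hlk* and 8.01, 6.31, 6.45 and 8.77 in *hMYC-1*, against 9.49 to 11.46 with a median of 10.46 in *hMYC-2*. For both genes *hMYC-1* replicate 4, and to a lesser degree replicate 1, lay nearer to the other groups than replicates 2 and 3 did. *cebpb*, a bZIP factor of myeloid cells and of acute responses, read 8.99, 9.37 and 8.71 in *hlk* and 7.23, 7.44, 6.50 and 7.28 in *hMYC-1*, against 9.06 to 10.53 with a median of 9.28 in *hMYC-2*, and there *hMYC-1* was low on all 4 arrays.

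*sat1a.2* in *hMYC-2* ran 10.85 to 11.81 with a median of 11.66, close to its *hlk* values, so that *hMYC-1* was the low group, and its *hMYC-2* minus *hMYC-1* difference was 2.08 ± 0.19 (adjusted p = 0.000191). *arg2* was intermediate in *hMYC-2*, at 7.33 to 9.92 with a median of 8.12. *ddx5*, an RNA helicase of splicing and transcription, read 10.44, 10.81 and 10.58 in *hlk* and 8.73, 8.35, 9.03 and 9.15 in *hMYC-1*, against 9.97 to 11.10 with a median of 10.52 in *hMYC-2*. *abcf2a*, an ABC protein without membrane part, and *higd1a*, a mitochondrial protein induced by hypoxia, had *hMYC-2* minus *hMYC-1* differences of 1.59 ± 0.22 (adjusted p = 0.0057) and 1.84 ± 0.22 (adjusted p = 0.00195). *mcl1a*, which holds off apoptosis, read 10.39, 11.30 and 10.67 in *hlk* and 9.77, 9.70, 9.75 and 9.76 in *hMYC-1*, against 10.35 to 11.16 with a median of 10.82 in *hMYC-2*.

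The 4 genes higher in *hMYC-1* than in both were *sox19a*, *utp3*, *e2f4* and *fzr1a*. *sox19a* ran 6.98 to 7.5 with a median of 7.28 in *hMYC-2*, below every *hMYC-1* array and above every *hlk* array, and *utp3* did likewise at 7.01 to 7.46 with a median of 7.21. *e2f4*, an E2F factor that mostly represses, was at 9.41, 9.07 and 9.33 in *hlk* and at 10.10, 9.93, 9.96 and 9.92 in *hMYC-1*, and it differed by 0.71 ± 0.09 (adjusted p = 0.000137). *fzr1a*, an activator of the anaphase promoting complex, was higher by 0.40 ± 0.09 (adjusted p = 0.0105), a call lost when the *hlk* and *hMYC-1* arrays were fitted alone (adjusted p = 0.0775).

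**Figure D4:**
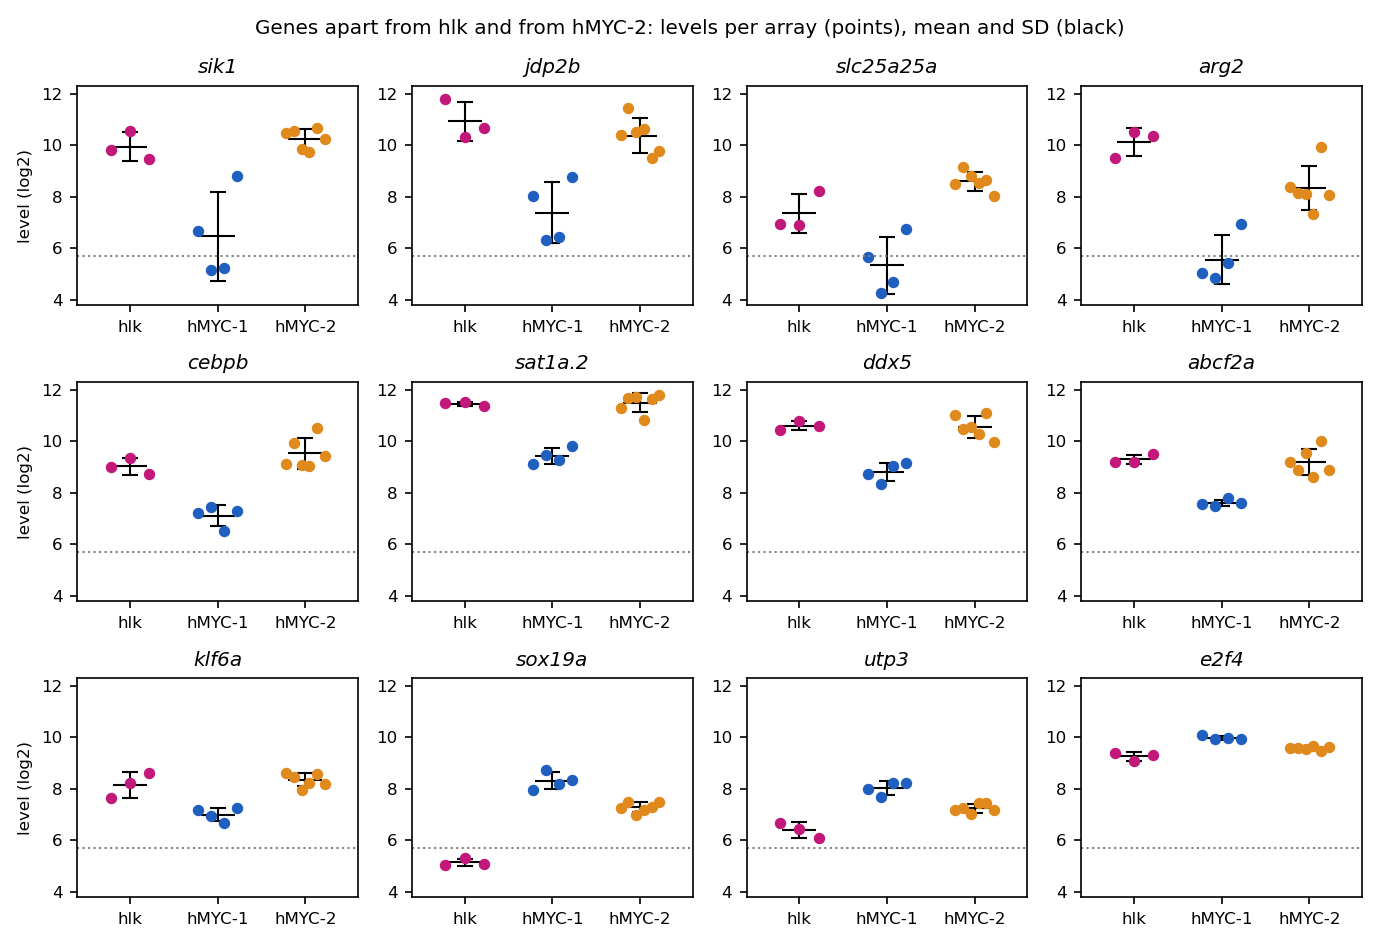
Levels (log2) of 12 of the 29 genes that passed both between *hMYC-1* and *hlk* and between *hMYC-2* and *hMYC-1*, on each array of *hlk* (3), *hMYC-1* (4) and *hMYC-2* (6), with group mean and SD in black and a dotted line at 5.68. In the first 9 panels *hMYC-1* lies lowest, and in the last 3 highest.

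The AP-1 and immediate early genes as a list were uneven within *hMYC-1*. Of 49 members, 6 were higher than in *hlk* and 9 lower, with a median of −0.57. The list's level stood at −0.04, −1.02, −1.0 and 0.23 in *hMYC-1* replicates 1 to 4, where the *hlk* arrays lay at 0.03, −0.05 and 0.02 and *hMYC-2* ran from 0.67 to 1.29. Replicates 2 and 3 were thus low, replicate 1 was at the *hlk* level and replicate 4 above it. Without *hMYC-1* replicate 4, 14 members were lower. *jun* read 8.09, 7.39, 6.47 and 9.09 in *hMYC-1* against 9.25, 9.65 and 8.26 in *hlk*, with overlap, and the groups differed by −1.29 ± 0.50 (adjusted p = 0.0993), while *hMYC-2* ran 10.66 to 11.47 with a median of 11.14. Without *hMYC-1* replicate 4 the *jun* difference was −1.74 (adjusted p = 0.0154). *klf2a*, a factor of quiescent lymphocytes, read 4.70, 5.17 and 8.61 in *hlk* and 9.32, 10.10, 9.67 and 9.74 in *hMYC-1*, and the difference was 3.55 ± 0.69 (adjusted p = 0.00278).

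*hMYC-1* replicates 3 and 4 lay nearer to *hlk* than replicates 1 and 2 for many of the genes that fell. Of 109 genes lower in *hMYC-1* by 2 or more and above background in *hlk*, the array nearest to *hlk* was replicate 3 in 65 (59.6%), replicate 4 in 24, replicate 2 in 12 and replicate 1 in 8. The median difference over these genes was −3.05, −3.14, −2.27 and −2.70 in replicates 1 to 4, and −3.08 to −2.87 on the *hMYC-2* arrays. Among 155 genes higher by 2 or more and above background in *hMYC-1*, the array nearest to *hlk* was replicate 3 in 63, replicate 1 in 42, replicate 4 in 33 and replicate 2 in 18, with 1 tie (*pxna*) counted for both arrays, and the medians of the 4 arrays, 3.15, 3.31, 3.02 and 3.09, were closer together.

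*znrf1*, a ubiquitin ligase gene, read 10.44, 10.00 and 10.37 in *hlk* and 4.12, 4.16, 8.22 and 7.04 in *hMYC-1*, against 4.33 to 5.74 with a median of 5.46 in *hMYC-2*. *cyld2*, *palm1b* and *b3gnt5a*, the last an enzyme that starts lacto-series glycolipids, split in the same way, at 2.88, 3.21, 7.54 and 6.25, at 3.23, 3.30, 6.95 and 5.26 and at 3.76, 3.86, 7.46 and 5.42 in *hMYC-1*. Replicates 1 and 2 were within background for all 3 genes and replicate 3 was above it. *arpp21*, an RNA-binding phosphoprotein that is also made in mouse thymocytes, was at 10.48, 10.64 and 10.45 in *hlk* and at 4.31, 4.73, 7.61 and 6.37 in *hMYC-1*. *runx3*, a Runt factor of T cells, read 8.92, 8.74, 10.32 and 9.63 in *hMYC-1* against 11.76, 11.90 and 12.04 in *hlk*, and it differed by −2.50 ± 0.40 (adjusted p = 0.000719). In contrast *farsa*, *ctnnb2*, *psmb9a* and *spred1* were low on all 4 arrays. *pax5*, the B cell commitment factor, read 8.94, 8.91, 7.51 and 7.90 in *hMYC-1* and *spi1b*, an ETS factor of B and myeloid cells, 9.59, 9.62, 8.26 and 8.24. Replicates 3 and 4 both lay below replicates 1 and 2 in 8 of the 12 B lineage genes that rose, including this pair. These 2 arrays are those with the low dap readings given above, replicate 3 also has the widest *gapdh* gap of the 4, and the part of array quality in the split was not tested. Without both arrays, which was tried after the data were seen, 2158 probe sets changed and 52.3% of them were higher. Without them, 32 of the 91 ribosome biogenesis genes were higher and 14 of the 49 AP-1 and immediate early genes lower. Over all 8793 genes, 715 were then higher and 667 lower.

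**Figure D5:**
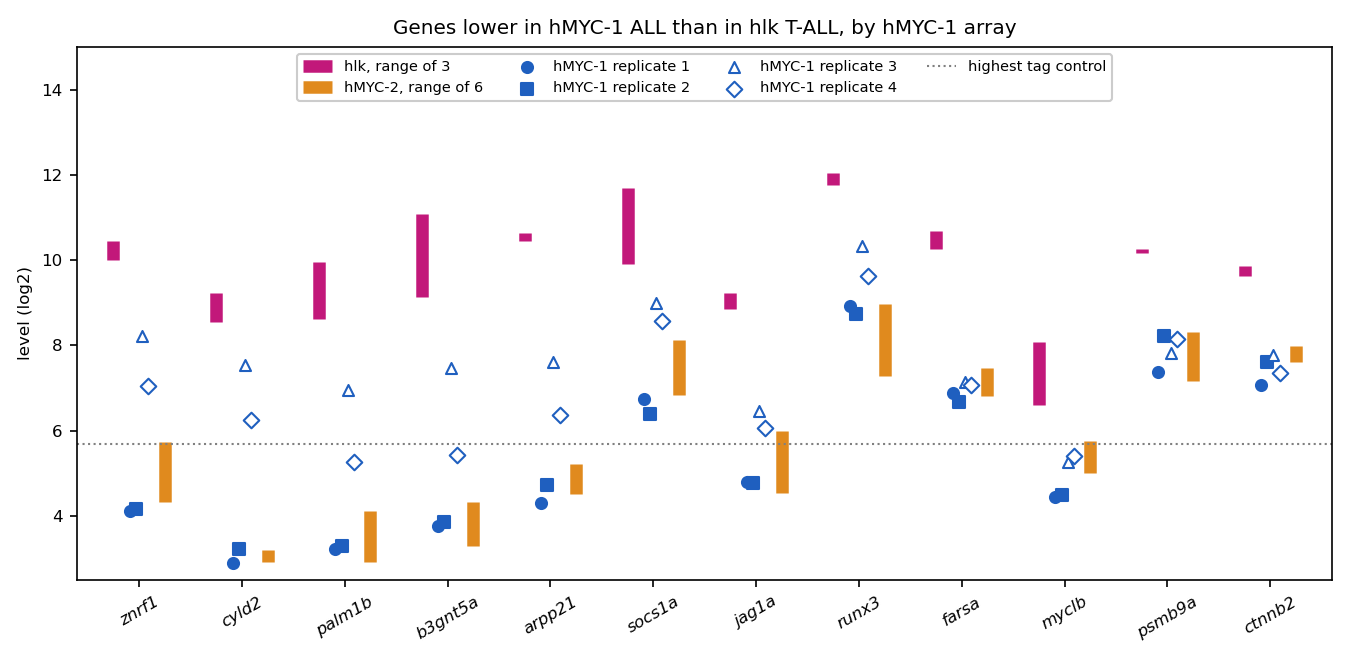
Levels (log2) of 12 genes lower in *hMYC-1* than in *hlk*, with 1 symbol for each *hMYC-1* array, bars for the range of the 3 *hlk* and 6 *hMYC-2* arrays and a dotted line at 5.68. For the first 8 genes replicates 3 and 4 (open) lie nearer to *hlk* than replicates 1 and 2 (filled), and for *farsa*, *psmb9a* and *ctnnb2* all 4 arrays lie together.

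Markers of other cells were mostly at background. Of 179 marker genes in 12 lists (5 of blood cells, the others of muscle, skin, liver, kidney tubule, ovary, gut with pancreas, and connective tissue with endothelium), 141 were within background on all 7 arrays. By limma's test 1, the protease gene *ctsc*, was higher in *hMYC-1* and 14 were lower, a share of 7.82% against 10.3% over all genes. The lower count was 2 under equal housekeeping levels and 7 without *hMYC-1* replicates 3 and 4. *ctsc* read 6.94, 5.27 and 5.57 in *hlk* and 6.73, 7.09, 7.31 and 7.52 in *hMYC-1*, and its call was lost in 6 of the other settings. Of those lower, the macrophage gene *cd68* was at 10.40, 10.08 and 10.19 in *hlk* and at 9.67, 9.44, 9.71 and 9.81 in *hMYC-1*, a difference of −0.57 ± 0.12 (adjusted p = 0.00476), and its call was lost under equal housekeeping levels (adjusted p = 0.0766). The NK and cytotoxic list had a mean level of 3.80 to 5.77 on the *hlk* arrays and 3.83 to 4.28 on the *hMYC-1* arrays. Its high end was *hlk* replicate 1, at 1.24 from the *hlk* mean, against −0.51 and −0.73 on replicates 2 and 3. The skin list was likewise highest on that array, at 0.52 against −0.27 and −0.25, but the hepatocyte list on replicate 2 (0.17). Replicate 1 is the *hlk* array with the wide *gapdh* gap, and the part of array quality here was not tested. The skin list ran from 4.14 to 4.94 and 4.03 to 4.33, and all 7 thrombocyte and all 12 fibroblast and endothelial markers were within background. The cells were sorted for GFP, and the part of other cells in the differences above was not tested.

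Other probe sets were checked for 42 of the genes examined, 63 probe sets in all. On 60 of these the difference had the same sign, and 32 of the 60 passed. The 3 of opposite sign, for *hnrnpd*, *smarca4a* and *e2f4*, did not pass, and that of *e2f4* was within background.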

How the data were processed

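Cells were sorted by the study from 1 adult fish each and hybridised to Affymetrix Zebrafish Genome Arrays. The deposited values are log2 expression per probe set, which the authors made with justRMA over all 13 arrays. All 15502 probe sets other than 115 controls were fitted in limma 3.58.1 (R 4.3.3) as group means over the 13 arrays, with Benjamini-Hochberg adjustment and a threshold of 0.05. Of these, 10795 had 1 symbol, 135 several and 4572 none, and a gene was read from its probe set with the highest mean. Gene lists are described by counts and medians. A gene can be in more than 1 list, so the lists are not independent of each other.

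The members and lists were chosen with earlier results of these data known. Genes were chosen by rule, and the text names only part of them. The rules took the 15 largest rises and falls without overlap, and up to 6 members per list by adjusted p. They also took genes that passed both between hMYC-1 and hlk and between hMYC-2 and hMYC-1. Some genes the study names, and the 20 largest rises and falls in no list, were taken too. A few further genes were chosen after their values were seen.

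Alternatives covered the test (a shrinkage t written from its published formulas), the prior, array weights, the arrays fitted, a filter on low values, the normalization, a minimum fold, the replicate number as a block, the probe set per gene, and each array left out. Without any counts behind the values, the number of arrays limits the precision.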

Additional observations from a re-analysis of the deposited data

Results flagged for a closer look

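In 6 of the 182 genes examined, 1 *hMYC-1* array lay far from the other 3 relative to the range of the 4, by Dixon's test, which chance passes in about 1 in 20 groups. These were *bop1* in replicate 1 (6.69), *mthfd1b* in replicate 2 (9.47), *cd74b* (10.92) and *spred1* (5.08) in replicate 3, and *fosl2* (5.95) and *map3k4* (6.97) in replicate 4. *spred1* was within background on all 4 arrays.

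In 29 genes *hMYC-1* differed both from *hlk* and from *hMYC-2* by limma's test. The *hMYC-2* minus *hMYC-1* difference was largest in *sik1* (3.80), *slc25a25a*, a mitochondrial carrier of adenine nucleotides (3.27), *jdp2b* (3.00), *arg2* (2.77), *cebpb* (2.42) and *sat1a.2* (2.08). It was 1.84 in *higd1a*, 1.83 in *myca*, 1.76 in *ddx5*, 1.71 in *slc3a2b*, the heavy chain of amino acid exchangers, 1.60 in *zgc:162730*, 1.59 in *abcf2a*, 1.5 in *sat1a.1* and 1.35 in *klf6a*. Smaller differences were 1.19 in *nufip2*, 1.13 in *ldha*, 1.12 in *ube2al* and in *ccnl1b*, 1.06 in *mcl1a*, 0.91 in *irf2bpl* and in *slc20a1b*, 0.86 in *coq10a* and 0.69 in *ivns1abpa*. The difference was negative in *sox19a* (−1.02), *utp3* (−0.78), *fzr1a* (−0.48), *ubtfl* (−0.45), *srsf6b* (−0.45) and *e2f4* (−0.40). *coq10a* lay within background on all arrays of both *hMYC* groups, and *sat1a.1* on all *hMYC-1* arrays, so the sizes of their differences are not resolved. Under equal housekeeping levels *ccnl1b*, *irf2bpl*, *nufip2*, *slc20a1b*, *srsf6b*, *ube2al* and *ubtfl* lost their call against *hlk*. *slc25a25a* and *fzr1a* lost theirs with *hlk* and *hMYC-1* fitted alone. The groups *hMYC-1* and *hMYC-2* were themselves drawn from these arrays, and the same *hMYC-1* arrays serve both comparisons.

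Outside the probe sets tested, 1 of the array's control probe sets had no gene assigned here and differed strongly. Controls of its kind include reporter sequences such as EGFP and DsRed, so the RNA it binds may not be a zebrafish one. The control named for EGFP read 6.46 to 6.68 in *hlk* and 6.39 to 6.80 in *hMYC-1*, and both groups carry *lck:eGFP*. Whether the probe set without a gene reads the GFP transgene was not tested. This probe set read 2.87, 3.80 and 2.82 in *hlk* and 11.44, 11.68, 6.25 and 11.92 in *hMYC-1*, a mean of 10.32 in *hMYC-1*. It read 10.62 to 11.28 in *hMYC-2*, and *hMYC-1* replicate 3 lay between the groups. A pair of other such probe sets ran the same way, from 2.90, 3.12 and 2.97 in *hlk* to 10.90, 11.05, 5.70 and 11.29 in *hMYC-1*, and from 3.10, 3.17 and 2.96 to 8.33, 8.56, 3.77 and 8.82. Another ran the other way, from 10.49, 11.69 and 11.77 in *hlk* to 8.20, 8.36, 9.64 and 8.71 in *hMYC-1*.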

How the results depend on the processing

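None of 340 genes examined changed direction under any setting. The count of 2909 probe sets changed became 1184 with the shrinkage t that the study's methods name, 1879 with the *hlk* and *hMYC-1* arrays fitted alone and 1213 with a minimum 2-fold difference. It ran from 2360 to 3020 with 1 *hMYC-1* or *hlk* array left out. Equal housekeeping levels made 74.9% of the changes rises. The 40 probe sets that also passed between *hMYC-2* and *hMYC-1* became 25 under equal housekeeping levels, 25 without *hMYC-1* replicates 3 and 4, 23 with a minimum 2-fold difference, and 23 to 46 with 1 array left out. The cause of these changes was not tested, apart from the smaller number of arrays where some were left out. Of the 340 genes, 49 lost their call under equal housekeeping levels, 41 with both groups fitted alone, 30 with array weights and 11 to 26 with 1 array of either group left out. With the median over a gene's probe sets in place of the brightest, Notch and Wnt genes higher became 5. The replicate numbers did not pair the arrays (correlations of deviations −0.15, 0.10 and −0.13 between *hMYC-1* and *hlk*), and with the number as a replicate block 2086 probe sets changed, 14 of them in both comparisons, and 28 of the 340 genes lost their call. With 3 and 4 arrays, and with readings at or under 5.68 not told from background, small or low differences could not be resolved.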

Other observations

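Secretory, lysosomal and cell death lists held changes in both directions, at 16.9%, 16.4% and 20.5% higher and 10.4%, 9.09% and 10.3% lower, against 10.6% and 10.3% over all genes. Of 77 genes of the endoplasmic reticulum and secretion, 13 were higher in *hMYC-1* and 8 lower. The higher count was 8 without *hlk* replicate 1 or without *hMYC-1* replicates 3 and 4, and the lower count was 2 under equal housekeeping levels and 5 without *hMYC-1* replicate 1, 2 or 4 or *hlk* replicate 3. *dnajb11*, a co-chaperone of the endoplasmic reticulum, read 7.14, 7.01 and 7.21 in *hlk* and 9.35, 9.19, 8.93 and 9.04 in *hMYC-1*, a difference of 2.01 ± 0.23 (SE, adjusted p = 4.69e-05). *sec24b*, of the coat of vesicles that leave it, read 8.85, 9.18 and 8.95 in *hlk* and 8.11, 8.01, 7.96 and 7.71 in *hMYC-1* (difference −1.05 ± 0.13, adjusted p = 8.99e-05). The direction was thus mixed within the list. Of 55 lysosome genes 9 were higher and 5 lower, with 4 to 10 and 2 to 5 when 1 array was left out, 5 and 3 without *hMYC-1* replicates 3 and 4, and 14 and 1 under equal housekeeping levels. The higher count was lowest without *hlk* replicate 3.

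Among 39 apoptosis regulators 8 were higher and 4 lower, with 8 lower without *hlk* replicate 1 and 2 lower under equal housekeeping levels. *bcl2l13*, a Bcl2 family member on mitochondria, read 6.64, 6.83 and 6.61 in *hlk* and 7.21, 7.43, 7.29 and 7.07 in *hMYC-1* (difference 0.56 ± 0.10, adjusted p = 0.00209). Of 46 DNA repair and p53 genes 5 were higher and 2 lower (10.9% and 4.35%, against 10.6% and 10.3% over all genes). Without *hMYC-1* replicates 3 and 4 the counts were 2 and 1. Of that list *xpc*, which finds damaged bases for excision repair, rose from 7.45, 7.22 and 7.09 to 8.86, 8.97, 8.40 and 8.80 (difference 1.5 ± 0.18, adjusted p = 7.84e-05). Of 32 pentose phosphate and redox genes 3 were higher and 5 lower (*sod1*, *prdx4*, *msrb1b*, *gpx1b* and *gsto2*), with 6 and 1 under equal housekeeping levels. That was 9.38% and 15.6% of the list, against 10.6% and 10.3% over all genes. The lower count ran from 3 to 8 when 1 array was left out. Of the 3 that rose, *gpx1a*, a glutathione peroxidase, read 8.32, 7.16 and 7.14 in *hlk* and 9.86, 9.25, 9.40 and 8.86 in *hMYC-1* (difference 1.80 ± 0.29, adjusted p = 0.000745). None of *bcl2l13*, *xpc* and *gpx1a* overlapped between the groups.

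*per2*, a clock gene, read 9.11, 9.09 and 8.51 in *hlk* and 7.81, 8.45, 5.45 and 5.40 in *hMYC-1*, so replicates 3 and 4 were lowest. Its difference was −2.13 ± 0.62 (adjusted p = 0.0312), a call lost in 9 of the other settings, and −0.77 (adjusted p = 0.0978) without replicates 3 and 4.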
